A study of Mus musculus with 29 samples.

Results

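The TNF receptor family of B cells was examined through 9 genes, Tnfrsf13b, Tnfrsf13c, Tnfrsf17, Cd40, Cd27, Tnfrsf1a, Tnfrsf1b, Tnfrsf18 and Fas, which were chosen by name. All 9 were present among the 24732 gene entries of the mm9 expression tables and the 25588 entries of the mm10 tables. The study asked how the transcription factor Pax5, and its leukemic fusion with the kinase Jak2, act in B-lymphoid progenitors. RNA-seq of bone marrow cells from C57BL/6 mice covered 3 libraries of wild-type pro-B cells, 2 of Pax5-/- progenitors and 3 of pro-B cells from mice labelled Pax5+/+ Meox2-cre. The wild-type and Meox2-cre pro-B cells were sorted through a gate that included B220+ Kit+ CD2- IgM- IgD-, and the Pax5-/- cells through a different gate that included B220+ Kit+ Ly6D+, so the genotype and the gate cannot be told apart. The Meox2-cre mice, which carry a Cre expressed throughout the embryo, were 3 weeks old, and their cells are labelled as pooled. Their labels give Pax5+/+, whereas the study's own sample listing gives Pax5+/-. The study's text describes its 3-week-old control mice for pro-B cell RNA-seq as Pax5+/+. The ages of the other mice are not given in the sources used here.

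Receptors of the TNF family are transmembrane proteins that bind trimeric ligands of the TNF family. Most recruit TRAF adaptors and activate NF-kB, and those with a cytoplasmic death domain, such as the products of Tnfrsf1a and Fas, can also start apoptosis. In the B lineage, the receptors for BAFF and APRIL support survival of maturing B cells and plasma cells, and CD40 receives help from T cells.

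Values were TPM, a transcript abundance relative to all transcripts of the library, scaled to gene length, so levels of different genes can be set side by side within a library. The sum was 1000000 in each library and the depth in reads is unknown. Low values gave relative depths of 0.855 to 1.54 among the 5 mm9 libraries. Pax5 itself measured 342, 386 and 391 TPM in wild-type libraries and 43.0 and 39.1 TPM in Pax5-/- libraries. In the mm10 tables of the Meox2-cre libraries, Pax5 measured 394, 376 and 397 TPM, which was not tested against the other groups. Of the 11 early B lineage markers, all 11 were tested, and 0 were higher and 9 lower in Pax5-/- cells. The shares over all genes tested were 15.6% and 21.5%. In such bulk samples, fewer cells of a type and less RNA per cell cannot be told apart.

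The wild-type and Pax5-/- libraries were compared by limma on log2(TPM + 0.5) for the 12066 genes that averaged over 1 TPM in the libraries of either genotype. All fold changes are on this scale, which understates the change of low genes. Of the 9 members, 7 passed this filter, and Tnfrsf17 and Fas did not. In all, 5 members, Cd27, Tnfrsf1a, Tnfrsf18, Tnfrsf13b and Tnfrsf1b, were higher in Pax5-/- cells at an adjusted p below 0.05, against 15.6% of all genes tested. A single member, Cd40, was lower, against 21.5% of all genes tested. The median log2 fold change of the 7 was 0.80, beside -0.12 for all genes tested. A call required in addition that the change exceed 3-fold and that either genotype average over 5 TPM. By this rule 2 members, Cd27 and Tnfrsf1a, were called higher, against 2.71% of genes tested, and 0 were called lower, against 3.15%. The libraries of the genotypes did not overlap for 6 of the 7, but this held for 63.4% of all genes tested.

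**Figure D1:**
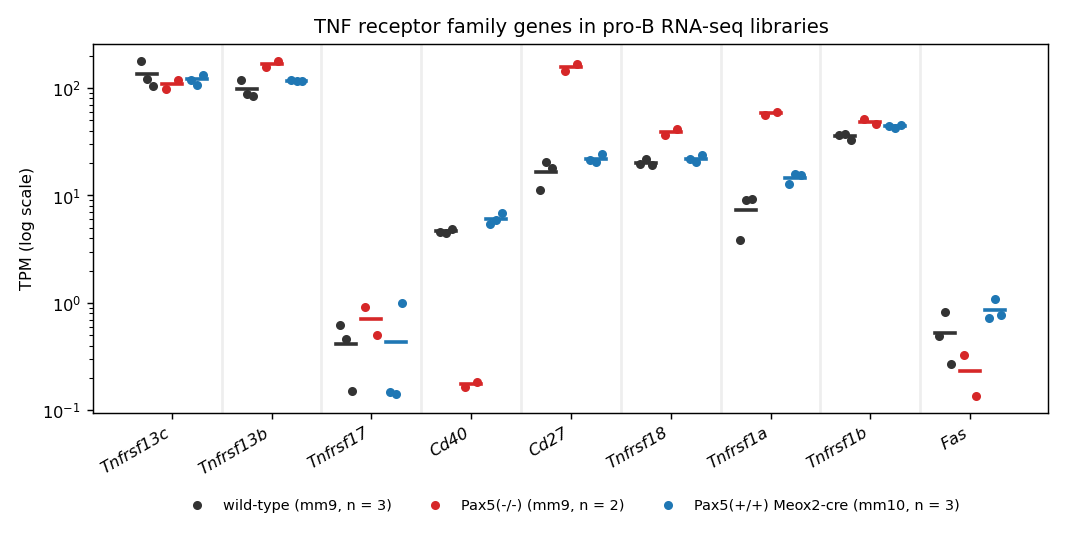
TPM of the 9 members on a log axis, with 1 point per library and a line at the mean of each group. Wild-type and Pax5-/- libraries come from mm9 tables and Meox2-cre libraries from mm10 tables. Cd27 and Tnfrsf1a lie higher and Cd40 lies lower in both Pax5-/- libraries than in all 3 wild-type libraries.

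Of the receptors for BAFF and APRIL, Tnfrsf13c and Tnfrsf13b had the highest mean levels of the 9 members in wild-type cells and Tnfrsf17 the lowest. Tnfrsf13c, which encodes the BAFF receptor, measured 180, 122 and 105 TPM in wild-type libraries and 97.8 and 119 TPM in Pax5-/- libraries. The genotypes overlapped, since the higher Pax5-/- library lay between wild-type libraries. The log2 fold change was -0.29 with a 95% confidence interval of -0.80 to 0.22 and a limma adjusted p of 0.33. Tnfrsf13b, which encodes TACI, a receptor for both BAFF and APRIL, measured 120, 87.4 and 84.2 TPM in wild-type and 158 and 177 TPM in Pax5-/- libraries. Both Pax5-/- libraries were above all wild-type libraries, and wild-type replicate 1 was the highest of its group for Tnfrsf13c and Tnfrsf13b alike. The log2 fold change was 0.80 ± 0.16 (SE, limma adjusted p = 0.0078). With 1 Pax5-/- library left out, it no longer passed the test, at a log2 fold change of 0.88 (limma adjusted p = 0.063) without replicate 1 and of 0.72 (limma adjusted p = 0.11) without replicate 2.

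Tnfrsf13c exceeded Tnfrsf13b by a ratio of TPM of at least 1.24 in each of the 3 wild-type libraries, whereas the ratio was 0.618 and 0.669 in Pax5-/- libraries. In the Meox2-cre libraries it was 1.01, 0.926 and 1.16, so the order of the genes was not the same in all libraries labelled Pax5+/+. Tnfrsf17, which encodes the plasma cell receptor BCMA, stayed at 0.151 to 0.624 TPM in wild-type and at 0.505 and 0.912 TPM in Pax5-/- libraries, and was not tested. Together, Tnfrsf13b and Tnfrsf13c made up 69.0% to 79.5% of the summed TPM of the 9 members in wild-type libraries, and 46.9% and 48.5% in Pax5-/- libraries. The sum itself ran from 273 to 376 TPM in wild-type libraries and was 546 and 610 TPM in Pax5-/- libraries.

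Among the costimulatory receptors, Cd27 and Cd40 moved in opposite directions. Cd27 encodes the receptor for CD70 and is found on lymphoid progenitors and T cells. It measured 11.2, 20.3 and 17.9 TPM in wild-type libraries and 145 and 167 TPM in Pax5-/- libraries. The Pax5-/- libraries lay far above the wild-type range, of which replicate 1 was the lowest. The log2 fold change was 3.24 ± 0.24 (SE, limma adjusted p = 8.2e-05), or 9.46-fold, and its 95% confidence interval ran from 2.68 to 3.80. Without wild-type replicate 1 it was 2.99. Cd27 accounted for 2.97% to 6.68% of the summed TPM of the 9 members in wild-type libraries and for 26.5% and 27.3% in Pax5-/- libraries.

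Cd40, whose product binds CD40 ligand on helper T cells, measured 4.61, 4.45 and 4.87 TPM in wild-type libraries and 0.166 and 0.184 TPM in Pax5-/- libraries. The groups stood far apart and each was narrow. The log2 fold change was -2.93 ± 0.24 (SE, limma adjusted p = 0.00012), and the log2 ratio of the mean TPM, which has no pseudocount, was -4.73. Cd40 did not meet the rule for a call because its mean was 4.65 TPM in wild-type cells, under the minimum of 5 TPM.

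Tnfrsf18, which encodes GITR, a receptor best known on T cells, measured 19.5, 22.0 and 19.1 TPM in wild-type and 36.9 and 41.5 TPM in Pax5-/- libraries. The groups did not overlap, and the rise was 1.92-fold, with a log2 fold change of 0.94 ± 0.14 (SE, limma adjusted p = 0.0018). Without Pax5-/- replicate 2, the log2 fold change was 0.86 (limma adjusted p = 0.054). In the mm9 annotation of GENCODE, the exons of Tnfrsf18 share 414 bases with those of Gm16008. Reads were counted without regard to strand, so the value of Tnfrsf18 may hold reads of both.

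The receptors for TNF rose by unequal amounts. Tnfrsf1a encodes TNFR1, the broadly expressed death domain receptor, and measured 3.82, 9.05 and 9.31 TPM in wild-type and 56.2 and 59.7 TPM in Pax5-/- libraries. Wild-type replicate 1 was again the lowest, and the groups did not overlap. The log2 fold change was 2.98 ± 0.35 (SE, limma adjusted p = 0.00067), or 7.90-fold, with a 95% confidence interval of 2.17 to 3.79. It was 2.59 without wild-type replicate 1. Against a change of more than 3-fold rather than against no change, Cd27 remained past the threshold (limma treat adjusted p = 0.0062) and Tnfrsf1a did not (limma treat adjusted p = 0.079). Cd40 also remained past it (limma treat adjusted p = 0.016), although its level kept it from a call.

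Tnfrsf1b encodes TNFR2, which lacks a death domain. It measured 36.8, 37.3 and 32.9 TPM in wild-type and 51.1 and 45.9 TPM in Pax5-/- libraries, which did not overlap. The log2 fold change was 0.44 ± 0.12 (SE, limma adjusted p = 0.027), and it did not pass the test without Pax5-/- replicate 1 (0.36, limma adjusted p = 0.21) or replicate 2 (0.51, limma adjusted p = 0.12). The ratio of Tnfrsf1b to Tnfrsf1a TPM was 9.64, 4.12 and 3.53 in wild-type libraries and 0.908 and 0.769 in Pax5-/- libraries, so Tnfrsf1a passed Tnfrsf1b in both Pax5-/- libraries. Fas, the death receptor for Fas ligand, stayed at 0.272 to 0.827 TPM in wild-type and at 0.137 and 0.329 TPM in Pax5-/- libraries and was not tested.

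**Figure D2:**
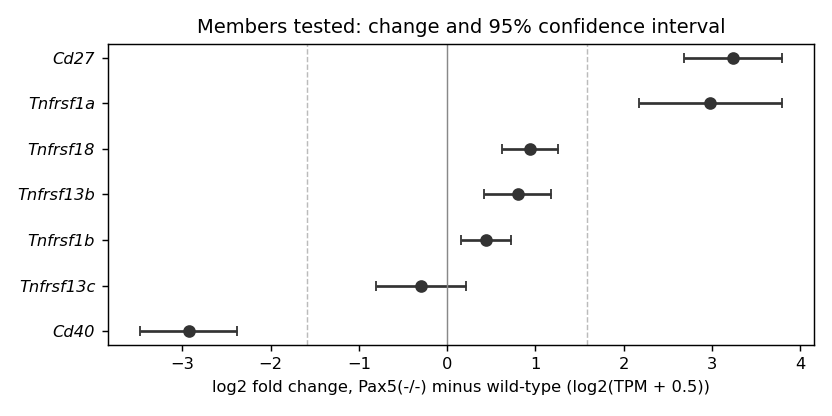
Log2 fold change of the 7 tested members, Pax5-/- minus wild-type, on the log2(TPM + 0.5) scale. Bars are 95% confidence intervals from limma, the solid line marks no change and the dashed lines mark a 3-fold change. The intervals of Cd27 and Tnfrsf1a lie above the upper dashed line, the interval of Cd40 lies below the lower one, and the interval of Tnfrsf13c spans no change.

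Markers of other cell types were read beside these values. Of all genes tested, 15.6% were higher and 21.5% lower at an adjusted p below 0.05, the threshold used for the marker counts below. The 7 tested myeloid markers summed to 45.9 to 252 TPM in wild-type libraries and to 55.4 and 83.7 TPM in Pax5-/- libraries, and 0 were higher and 2 lower. Of the 10 T and NK cell markers, 3 were tested, of which Cd4 and Nkg7 were higher and Klrb1c was lower in Pax5-/- cells, where the list summed to 23.3 and 30.7 TPM against 4.88 to 16.0 TPM in wild-type libraries. The defining T cell markers Cd3d, Cd3e and Cd3g measured at most 0.431 TPM in the Pax5-/- libraries, and Cd3e was listed at 0 in both. Of 3 tested plasma cell markers 0 were higher and 2 lower, of 3 tested plasmacytoid dendritic cell markers 1 was higher and 2 were lower, and of 2 tested erythroid markers both were lower. Of the 5 progenitor markers, all tested, 2 were higher, while Kit, Ptprc and Il7r did not pass the test. The 2 were Flt3 (11.1, 18.1 and 15.7 TPM against 327 and 388 TPM) and Ly6d, the latter part of the Pax5-/- gate, and their part in the rise of Cd27 was not tested. Kit, and B220 as a product of Ptprc, were part of both gates. Wild-type replicate 1 held the lowest myeloid sum as well as the lowest Cd27 and Tnfrsf1a, and that link was not tested.

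Cd27 and Tnfrsf1a lie near each other on chromosome 6, and a further receptor gene of the family, Ltbr, lies between them. In mm9 coordinates from GENCODE, Cd27 spans chr6:125182640-125187028 on the minus strand, Ltbr chr6:125256589-125263903 on the minus strand and Tnfrsf1a chr6:125299380-125312502 on the plus strand. The gap was 69560 bases from Cd27 to Ltbr and 35476 bases from Ltbr to Tnfrsf1a. Ltbr, which encodes the lymphotoxin beta receptor, measured 0.545, 2.26 and 1.11 TPM in wild-type and 16.9 and 14.9 TPM in Pax5-/- libraries. Its log2 fold change was 3.30 (limma adjusted p = 0.00073), and it was called higher along with the 2 members.

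The 3 tested genes nearest on the Cd27 side did not pass the test. There Tapbpl changed by 0.23 on the log2 scale (limma adjusted p = 0.16), Vamp1 by -0.20 (limma adjusted p = 0.73) and Mrpl51 by -0.33 (limma adjusted p = 0.066). In the GENCODE annotation, Cd27 lies within the span of Vamp1 without sharing exonic bases with it. The reads were counted on another annotation, where the mm9 entry of Cd27 is marked IMP_OVL and the mm10 entry is not. Whether this mark affects the value of Cd27 was not tested. Tuba3a was listed at 0 in all 5 libraries, and Scnn1a and Plekhg6, on either side of Tnfrsf1a, were too low to be tested. Among the 5 nearest tested genes on the outer side of Cd27, Ncapd2 fell by 0.46 on the log2 scale (limma adjusted p = 0.0088). Among those on the outer side of Tnfrsf1a, the nearest was Cd9, 97782 bases away. Cd9 changed by -0.44 (limma adjusted p = 0.13) and did not pass the test. Kcna5 fell by 2.69 (limma adjusted p = 0.0014) and lay 1170069 bases from Tnfrsf1a. Akap3, 1490614 bases away, rose by 1.80 (limma adjusted p = 0.0037). Dyrk4, 1513536 bases away, rose by 4.17 (limma adjusted p = 2.9e-05) and alone among these was called. Around each other member, the 5 nearest tested genes on each side held 0 genes called higher, against 2.71% of all genes tested, and Gm16515 near Tnfrsf13b and Gm14446 near Fas were called lower, against 3.15%. The remaining members lie apart, with Tnfrsf13b on chromosome 11, Tnfrsf13c on 15, Tnfrsf17 on 16, Cd40 on 2, Tnfrsf1b and Tnfrsf18 on 4 and Fas on 19.

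**Figure D3:**
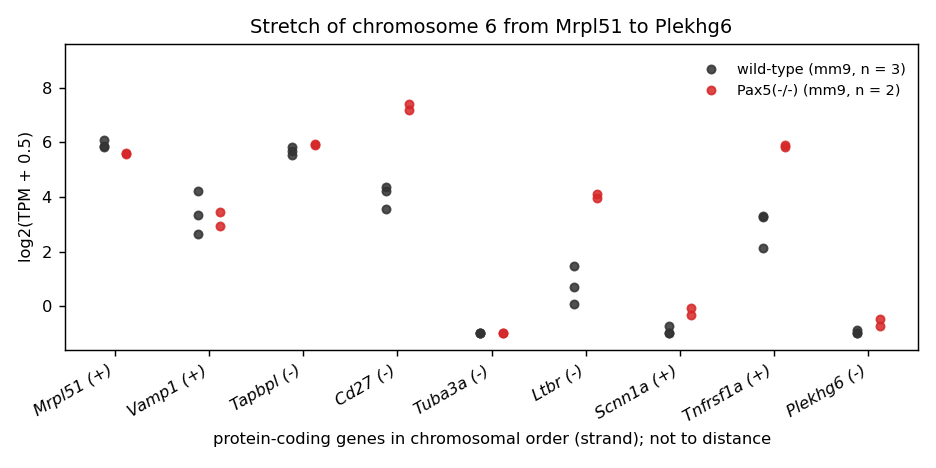
Expression as log2(TPM + 0.5) in each wild-type and Pax5-/- library for 9 protein-coding genes in their order on chromosome 6, with strand in brackets and distances not to scale. Points of Pax5-/- libraries lie well above those of wild-type libraries at Cd27, Ltbr and Tnfrsf1a, while at Mrpl51, Vamp1 and Tapbpl the 2 groups lie close together or overlap.

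The sequences before the start sites of these 3 genes are shown because the genes lie in 1 stretch and rose together. They are the 250 bases upstream from RefSeq on GRCm38.p6, at chr6:125237028-125237277 on the minus strand for Cd27, chr6:125313886-125314135 on the minus strand for Ltbr and chr6:125349473-125349722 on the plus strand for Tnfrsf1a. They are written 5′ to 3′, and capitals mark matches to CANNTG, the E-box motif, which reads the same on both strands.
Cd27: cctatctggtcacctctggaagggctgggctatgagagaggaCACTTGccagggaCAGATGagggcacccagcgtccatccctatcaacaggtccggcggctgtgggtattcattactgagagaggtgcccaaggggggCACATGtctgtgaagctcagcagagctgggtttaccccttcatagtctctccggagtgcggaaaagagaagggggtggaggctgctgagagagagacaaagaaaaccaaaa
Ltbr: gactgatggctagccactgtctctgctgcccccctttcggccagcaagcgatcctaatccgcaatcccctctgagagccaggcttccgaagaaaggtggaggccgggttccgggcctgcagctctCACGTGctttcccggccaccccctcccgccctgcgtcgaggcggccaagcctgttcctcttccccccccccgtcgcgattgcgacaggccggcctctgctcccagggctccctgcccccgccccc
Tnfrsf1a: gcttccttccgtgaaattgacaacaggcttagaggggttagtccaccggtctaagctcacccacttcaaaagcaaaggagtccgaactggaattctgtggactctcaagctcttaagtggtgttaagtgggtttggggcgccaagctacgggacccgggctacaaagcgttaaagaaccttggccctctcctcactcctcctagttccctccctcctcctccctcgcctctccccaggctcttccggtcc
The window of Cd27 held 3 matches, that of Ltbr 1 and that of Tnfrsf1a 0. Of 32851 windows of this length, 66.2% held at least 1 match, and 6 of the 8 members with a window did. Cd40 had no window in the set used here. The windows differed in base composition, with a GC content of 56.0% and 5 CpG in Cd27, 69.2% and 18 CpG in Ltbr and 55.6% and 9 CpG in Tnfrsf1a, beside medians of 52.4% and 6 over all windows. A match describes the letters of the window and not a bound site.

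In the Meox2-cre libraries, the members were set out side by side with the wild-type values and not tested, since other software and another genome build were used. Tnfrsf13c measured 120 ± 12.8 TPM and Tnfrsf13b 117 ± 2.13 TPM (SD, n = 3). Cd27 measured 22.0 ± 1.96 TPM, Tnfrsf1a 14.7 ± 1.67 TPM and Cd40 6.08 ± 0.680 TPM. Tnfrsf18 measured 22.0 ± 1.73 TPM and Tnfrsf1b 43.9 ± 1.21 TPM, while Tnfrsf17 stayed at 0.142 to 0.999 TPM and Fas at 0.728 to 1.09 TPM. The myeloid markers summed to 442 to 1223 TPM in these libraries.

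By mean TPM, wild-type and Meox2-cre cells had the same order of the first 7 members, Tnfrsf13c, Tnfrsf13b, Tnfrsf1b, Tnfrsf18, Cd27, Tnfrsf1a and Cd40. Within it, Tnfrsf13c and Tnfrsf13b overlapped in both groups, as did Tnfrsf18 and Cd27, and Tnfrsf1a and Cd40 overlapped in wild-type cells. Fas and Tnfrsf17 came last in both groups and overlapped. In Pax5-/- cells the order was Tnfrsf13b, Cd27, Tnfrsf13c, Tnfrsf1a, Tnfrsf1b, Tnfrsf18, Tnfrsf17, Fas and Cd40. There Tnfrsf13b overlapped with Cd27, and Fas with Cd40. With 5 libraries, splits of 3 against 2 allow 10 arrangements, so an exact permutation test of 1 gene cannot give a p below 0.1.

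Genes whose pattern was most like that of a member were found by the distance between centred log2 values over the 5 mm9 libraries. This distance rests largely on the change between the genotypes, so genes with a like change come out near. Shared regulation was not tested. Gm5111 was nearest to Cd27, at a distance of 0.081 on the log2 scale. Fgr, which encodes a kinase of the Src family, was nearest to Tnfrsf1a, at 0.13. Sdc4, which encodes a cell surface proteoglycan, was nearest to Cd40, at 0.13. Hyal2 was nearest to Tnfrsf18, Nlrx1 to Tnfrsf13b and Nr2c2ap to Tnfrsf1b.

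Of 17 ligands of the family, 8 were tested, and 4 were higher and 1 lower in Pax5-/- cells at an adjusted p below 0.05, against 15.6% and 21.5% of all genes tested, with a median log2 fold change of 0.68. Tnfsf11, which encodes RANKL, measured 1.47, 1.94 and 1.48 TPM in wild-type and 24.8 ± 0.280 TPM (SD, n = 2) in Pax5-/- cells and was called higher, with a log2 fold change of 3.58 (limma adjusted p = 2.6e-05). Tnfsf10, which encodes the apoptosis ligand TRAIL, measured 17.6, 35.9 and 34.3 TPM in wild-type and 6.56 and 5.52 TPM in Pax5-/- libraries and was called lower, with a log2 fold change of -2.12 (limma adjusted p = 0.0018). Neither pair of groups overlapped. Ltb, which encodes the membrane-anchoring subunit of the ligand for the lymphotoxin beta receptor, rose by 1.12 (limma adjusted p = 0.0028), to 513 and 578 TPM from 197 to 305 TPM. Tnfsf14 and Tnf, a ligand for both TNF receptors, rose by 1.52 (limma adjusted p = 0.0077) and 0.95 (limma adjusted p = 0.018). The ligands Tnfsf13b (BAFF), Tnfsf13 (APRIL), Cd40lg, Cd70, Fasl and Tnfsf18 were too low to be tested, and Cd40lg and Cd70 were listed at 0 in all 8 libraries.

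Of 19 other receptors, 11 were tested, and 4 were higher and 2 lower, against the same 15.6% and 21.5%, with a median log2 fold change of 0.07. Tnfrsf19, an orphan receptor also named TROY, measured 80.2, 98.2 and 103 TPM in wild-type and 4.77 and 2.57 TPM in Pax5-/- libraries and was called lower, with a log2 fold change of -4.54 (limma adjusted p = 1.8e-05). Relt measured 25.1, 20.6 and 21.7 TPM in wild-type and 78.4 and 90.0 TPM in Pax5-/- libraries and was called higher along with Ltbr, with a log2 fold change of 1.88 (limma adjusted p = 7.8e-05). The groups of both genes stood apart. Tnfrsf8, which encodes CD30, fell by 2.71 (limma adjusted p = 0.0020), while Tnfrsf22 and Tnfrsf26 rose by 1.26 (limma adjusted p = 0.0076) and 0.82 (limma adjusted p = 0.029).

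All 21 adaptors and signalling regulators were tested, and 1 was higher and 6 lower, against 15.6% and 21.5% of all genes tested, with a median log2 fold change of -0.08 and 0 called. Map3k14, which encodes NIK, the kinase of the non-canonical NF-kB pathway, measured 16.9, 26.9 and 23.6 TPM in wild-type and 58.0 and 56.9 TPM in Pax5-/- libraries, a log2 fold change of 1.36 (limma adjusted p = 0.0018). Birc3, which encodes the ubiquitin ligase cIAP2, fell by 0.89 (limma adjusted p = 0.0029). Tnfaip3, which encodes the NF-kB inhibitor A20, fell by 0.87 (limma adjusted p = 0.037). Traf6, a TRAF adaptor, fell by 0.74 (limma adjusted p = 0.0033) and Sharpin, a subunit of the linear ubiquitin ligase, by 0.70 (limma adjusted p = 0.0060). Without either Pax5-/- library, the number of genes of the 3 lists past the threshold was 9, down from 18.

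**Figure D4:**
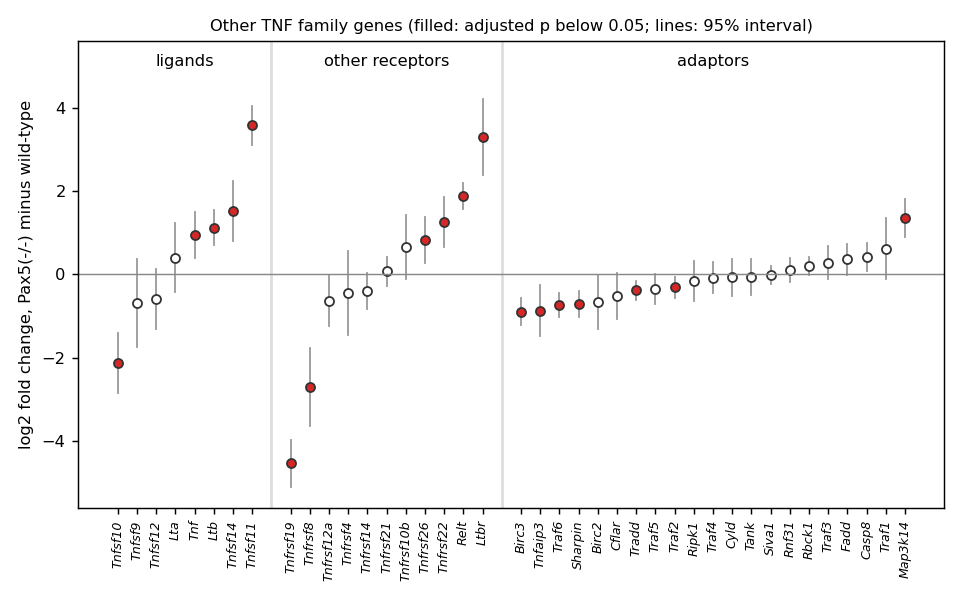
Log2 fold change of the tested ligands, other receptors and adaptors, Pax5-/- minus wild-type, on the log2(TPM + 0.5) scale, ordered within each list. Vertical lines are 95% confidence intervals and filled points have a limma adjusted p below 0.05. Tnfsf11 and Ltbr lie highest and Tnfrsf19 lowest, and the adaptors keep within a narrower range.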

How the data were processed

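RNA-seq values were deposited as TPM, which the authors calculated per gene from featureCounts 1.5.0 read counts, keeping immunoglobulin and T cell receptor genes. Wild-type and Pax5-/- reads were aligned by the authors to mm9 with TopHat 1.4.1a and counted on a modified refGene annotation, and Meox2-cre reads were aligned to mm10 with STAR 2.4.2a. Counting used no strand information, and depth in reads cannot be taken from TPM. Groups came from the sample labels, and replicate numbers only name libraries. Nothing in the labels ties libraries to separate mice, so p-values measure the spread between these libraries, which may be technical.

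Wild-type and Pax5-/- values were tested, as log2(TPM + 0.5) with limma (version 3.58.1, R 4.3.3, lmFit and trended eBayes, two-sided). The fit took genes averaging over 1 TPM in either genotype, with no covariates and Benjamini-Hochberg adjustment over all genes tested. Calls followed the study's thresholds (adjusted p below 0.05, more than 3-fold, mean above 5 TPM, no immunoglobulin or T cell receptor genes), whereas the authors used DESeq2 on counts. The script was tested on simulated data. The 9 members, the lists of ligands, receptors, adaptors and markers, and the tests were chosen with earlier results of these data known. Named genes were the members, the called genes of each list with at most 4 further genes past the threshold, the genes beside called members, the genes nearest in pattern, and the markers, of which some are not reported here. Alternatives were pseudocounts of 0.1 and 1, omitting the low-value filter or raising it to 5 TPM, untrended and robust eBayes, median-ratio scaling, quantile normalization, removal of immunoglobulin and T cell receptor genes, the ratio of mean TPM, a 2-fold threshold, limma's treat test and leaving out each library. Gene positions were from GENCODE on mm9 and promoter sequences from RefSeq on GRCm38.p6. ChIP-seq files and other RNA-seq samples were not used here. Tables and figures were made with Python 3.11.15, numpy 2.4.6, pandas 2.3.3 and matplotlib 3.10.9.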

Additional observations from a re-analysis of the deposited data

How the results depend on the processing

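No log2 fold change of a tested member reversed under the alternatives run. Cd27 (2.99 to 3.41), Tnfrsf1a (2.59 to 3.19) and Cd40 (-4.73 to -2.26) kept their side of the threshold in each test against no change, although Cd40 dropped out under the filter at 5 TPM, and Tnfrsf13c (-0.46 to -0.07) never passed. The number of members past the threshold was 6 and ran from 3 to 6 when 1 library was left out. It was 3 without Pax5-/- replicate 2, where Tnfrsf13b, Tnfrsf1b and Tnfrsf18 were lost, and 4 without Pax5-/- replicate 1. Genes of the 3 lists past the threshold ran from 9 to 21 when 1 library was left out, and 9 remained without Pax5-/- replicate 1 or without replicate 2. Members called higher fell from 2 to 1 under the treat test against 3-fold, which Cd27 passed and Tnfrsf1a did not (limma treat adjusted p = 0.079). Cd40 passed that test as well but, at its mean level, was not called. Where 1 Pax5-/- library was left out, the lone library was assumed to vary like the wild-type group. Median-ratio scaling moved the median log2 fold change of all genes from -0.12 to -0.0031 and the members with it, for example Tnfrsf13b from 0.80 to 0.92. No paired analysis was possible because no label pairs a wild-type with a Pax5-/- library. The unknown depth leaves no counting interval for the low values of Tnfrsf17, Fas and Cd40.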
